A study of Homo sapiens with 8 samples.

Results

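The open chromatin of paclitaxel-resistant (TxR) A2780 cells was compared with that of cisplatin-resistant (CpR) A2780 cells. The TxR and CpR columns, with 2 libraries each (4 of the 8 in the series), were set against each other over every consensus peak with at least 1 CPM in at least 2 of the 8 libraries, which kept 158698 of 159451 peaks. A2780 is an established line of human ovarian cancer cells. All groups carry the same genotype label, WT. TxR cells are labelled with paclitaxel as treatment, CpR cells with cisplatin, TxCpR cells with both drugs and Control cells with none. The doses, the length of selection, whether drug was present at collection and whether each line is 1 clone are not stated in the labels. A difference between TxR and CpR is therefore a difference between 2 derived lines and cannot be told apart from what separates individual clones. The assay was ATAC-seq, in which the transposase Tn5 cuts accessible DNA and tags the fragments, and values are CPM, reads scaled to a fixed total over the peaks of a library. Levels are given per library, and differences are TxR minus CpR on the log2(CPM + 0.5) scale with limma's standard error (SE).

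Paclitaxel binds beta-tubulin and stabilises microtubules, which stalls dividing cells in mitosis. It is exported by the ATP-driven pump P-glycoprotein, the product of ABCB1, whose activation is a well-known route to taxane resistance. Cisplatin enters cells partly through copper and volume-regulated anion channels, crosslinks DNA and is bound by glutathione and metallothioneins; its lesions are processed by excision, crosslink and mismatch repair. AP-1 is a family of FOS and JUN dimers, induced by stress and by ERK signalling, that binds a short palindrome in enhancers and some promoters.

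Among the 11577 genes with a measured RefSeq promoter (250 bases before to 50 after a start, GRCh38.p14), the letters TGANTCA differed in frequency with the direction of change. They are a loose spelling of the AP-1 site that also counts variants such as TGATTCA. The shares are a description with no test. The letters were found on either strand in 15.3% of the 665 promoters that were lower in TxR by at least 1 on the log2 scale. They were found in 4.37% of the 595 promoters higher by as much and in 4.39% of all 11577 promoters. Read the other way, 20.1% of the 508 promoters that hold these letters were lower in TxR by at least 1, against 5.09% of the 11069 that do not. The lower promoters also held fewer CpG (median 16, against 23 in the higher and 26 in all promoters). Within the 25% of promoters with the fewest CpG (0 to 18), 32.6% of 261 promoters holding TGANTCA were lower by at least 1. The share was 10.8% of the 2634 without it. CpG count still varied within this class and peak strength was not held fixed. The part of either in these shares was not tested. The sites below are the 6 lower and 4 higher promoters holding these letters with the largest differences (higher group at 5 CPM or more on average), printed 5′ to 3′ on the strand of the gene with the match in capitals; they show the sequence on which the count rests, first the lower and then the higher ones.
ZNF470-DT: accaaggaccTGAGTCAggttatctggt
F2RL2: gaggcttggccTGAGTCAtgcttactgaa
HRH1: tttagtcagacTGAGTCActtcaaggagg
SLFN12: gctggaaaggtTGAGTCAcccctttaggg
SPATA12: gcagcagcctcTGAGTCAcaactcagccc
CPA4: ttttgaggactTGAGTCActctcagactc
DNAJC15: gcctgtgagtgTGATTCAagaacgtccca
ARHGDIB: acggttcgtcaTGAGTCAtctttgaggca
ABCB1: aatgtccccaaTGATTCAgctgatgcgcg
ACYP2: tacccagtagaTGAGTCActgcatgtccc

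These sites lie at chr19:56568244-56568271, minus strand (ZNF470-DT), chr5:76623423-76623451, minus strand (F2RL2), chr3:11137156-11137184, plus strand (HRH1), chr17:35433365-35433393, minus strand (SLFN12), chr3:57060532-57060560, plus strand (SPATA12) and chr7:130293102-130293130, plus strand (CPA4). The higher ones lie at chr13:43023383-43023411, plus strand (DNAJC15), chr12:14951250-14951278, minus strand (ARHGDIB), chr7:87601101-87601129, minus strand (ABCB1) and chr2:54123115-54123143, plus strand (ACYP2). The match starts 37 bases before the start of F2RL2, a thrombin receptor gene, and 71 bases before that of HRH1, the histamine H1 receptor gene. HRH1 had 2.31 and 1.57 CPM in TxR libraries, against 39.5 and 35.8 CPM in CpR libraries. CPA4, which encodes a carboxypeptidase, had 1.09 and 0.337 CPM in TxR libraries, against 16.8 and 15.1 CPM in CpR libraries. SLFN12, a Schlafen family gene, had 1.21 and 0 CPM in TxR libraries, against 14.5 and 13.6 CPM in CpR libraries. At all 3 the CpR libraries stood alone: TxCpR libraries had 4.204 and 3.33 CPM and Control libraries 1.82 and 1.67 CPM at HRH1, the highest of these values at the 3 genes. All 6 lower sites read TGAGTCA, while ABCB1 and DNAJC15 hold the variant TGATTCA. A match describes letters in a 300-base window and is no evidence of binding. A window was counted where a peak overlapped any part of it, so a match can lie outside the peak. This was so at ZNF470-DT, whose peak spans chr19:56567219-56568219. In all, 8 motifs were searched on both strands. The cyclic AMP response motif, spelled TGACGTCA, was in 3.25% of all promoters and in 1.504% of those lower by at least 1. The antioxidant response motif, spelled TGACNNNGC, whose matches can overlap those of the AP-1 letters, was in 14.8% of all promoters and in 14.1% of those lower by at least 1. The core bound by TEAD factors, GGAATG, was in 10.8% of all promoters and in 13.99% of those lower by at least 1. The CCAAT box was in 36.6% of all promoters, in 34.6% of those lower by at least 1 and in 32.8% of those higher by as much. The TATA box, searched as TATAAA, was in 5.47% of all promoters and in 9.77% and 8.57% of the same lower and higher sets. CCGGAA, the core bound by ETS factors, was in 13.2% of promoters lower by at least 1, in 24.7% of those higher and in 29.0% of all. GGGCGG, the GC box of SP factors, was in 52.3%, 62.2% and 70.9% of the same sets.

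Counted over all peaks, 61483 of 158698 (38.7%) differed at a Benjamini-Hochberg adjusted p under 0.05 in limma. Of these, 24272 (15.3%) were higher and 37211 (23.4%) lower in TxR. With a difference of at least 1 on the log2 scale (2-fold), 13683 peaks (8.62%) were higher and 32503 (20.5%) lower. Each gene was represented by its strongest peak over a promoter window or, for the 3103 of 14680 genes without a start in the promoter table, within 1 kb of either end of the gene, called its gene peak. Of the 14680 gene peaks, 5191 (35.4%) were higher and 1856 (12.6%) lower, and with a difference of at least 1, 752 (5.12%) were higher and 955 (6.51%) lower. The lean of gene peaks to the higher side depended on the scaling. The median gene peak differed by 0.21 under CPM, by 0.06 after quantile scaling and by -0.00 after loess scaling, which called 2447 gene peaks higher and 2868 lower. Of the gene peaks past 1, loess scaling kept a call of any size for all 752 higher and 854 of 955 lower ones, quantile scaling for 752 and 868, and subtraction of regional medians for 712 and 740, with 7 turned. The number past 1 itself depended on the scaling: it was 563 higher and 921 lower after loess scaling, 981 and 899 after TMM scaling, 1082 and 928 in edgeR and 2223 and 717 after regional medians were subtracted. Counts of called genes below, of any size or past 1, hold under CPM unless another scaling is named. They are to be read against the shares over all gene peaks just given. Whether an opening in some cells or a wider opening in all cells lies behind a level cannot be told apart in bulk libraries, and neither can more copies of a region and more open chromatin.

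Depth was 8236447 and 8898337 reads in peaks in TxR and 8885297 and 8552256 in CpR libraries, and a count of 0 allows up to 0.337 to 0.364 CPM in these 4 (3 reads, counting error only). Across peaks, which are no replicates, the 2 TxR libraries correlated at 0.933 and the 2 CpR libraries at 0.926, while TxR with CpR libraries correlated at 0.587 to 0.599. No library stood apart from its group. Of 13 ovarian carcinoma markers 11 had a gene peak, with a summed level of 40.7 to 43.3 CPM in TxR and 54.4 to 58.2 CPM in CpR libraries, 1 being higher (ESR1) and 3 lower. A longer list of ovarian carcinoma genes, 16 of them measured, summed to 122.8 to 127.0 CPM in TxR and 116.8 to 122.7 CPM in CpR libraries, with 4 higher (ESR1, MECOM, ARID1A and MUC1) and 3 lower (PAX8, KRT7 and KRT8). The ESR1 call (1.30, adjusted p = 0.0142) was lost without TxR library 1 (0.74, adjusted p = 0.341) or CpR library 1 (1.21, adjusted p = 0.0786). MUC16 and WFDC2 had none, and the gene peak of PAX8, a Müllerian lineage factor, had 0.486 and 0.787 CPM in TxR libraries, against 4.28 and 3.74 CPM in CpR libraries (-2.00; -0.96 and not called with the regional median subtracted, adjusted p = 0.0736). The strongest peak over PAX8 was open in CpR only among the 4 groups, with 1.34 and 1.01 CPM in TxR libraries, against 35.3 and 32.04 CPM in CpR libraries, 1.36 and 1.07 CPM in TxCpR and 1.17 and 1.80 CPM in Control libraries. Of other cell types, 5 of 10 haematopoietic markers (summed 39.8 to 40.6 CPM in TxR, 23.97 to 28.6 CPM in CpR) and 3 of 8 endothelial markers (13.8 to 14.2 CPM in TxR, 7.48 to 8.67 CPM in CpR) had a gene peak. The defining genes PTPRC, CD3D, MS4A1, PECAM1, CDH5 and VWF had none. Both lists changed in both directions, and 1 gene made up much of each sum. SPI1 and IKZF1 were higher and CD14 lower (-1.85). SPI1 alone had 32.5 and 35.7 CPM in TxR and 20.03 and 17.7 CPM in CpR libraries. CLDN5 was higher and ERG lower (-1.47). CLDN5 alone had 11.9 and 11.2 CPM in TxR and 2.03 and 1.17 CPM in CpR libraries. Of 10 fibroblast markers 9 had a gene peak, 3 higher (LUM, DCN and COL1A2) and 3 lower (PDGFRB, POSTN and COL1A1), with a sum of 103.5 to 107.6 CPM in TxR and 105.9 to 107.9 CPM in CpR libraries. Of 7 neuronal markers 5 had one, with 50.6 to 53.9 CPM in TxR and 45.4 to 59.98 CPM in CpR libraries.

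**Figure D1:**
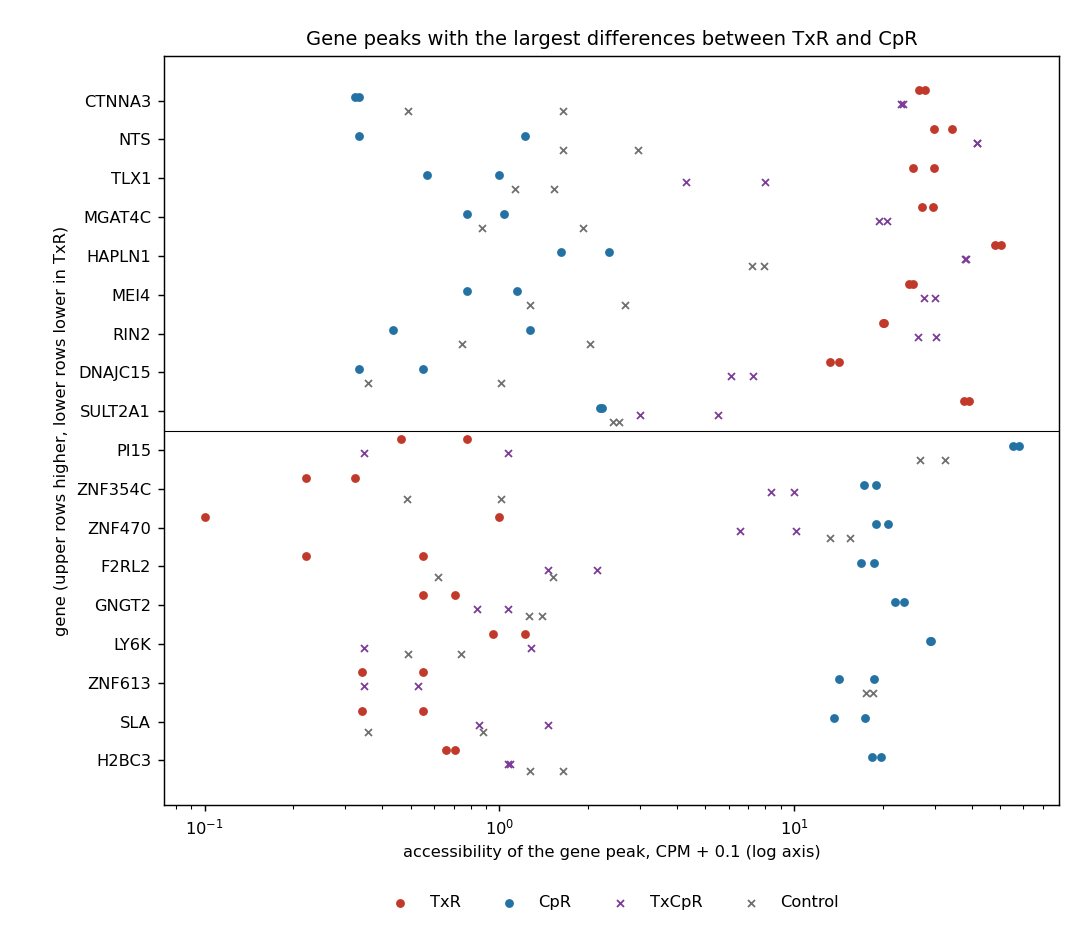
CPM + 0.1 on a log axis for 18 of the 20 gene peaks with the largest differences, each dot or cross being 1 library of TxR, CpR, TxCpR or Control. In every row the 2 TxR and the 2 CpR symbols lie far apart without overlap, while the TxCpR and Control crosses fall on either side from gene to gene.

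Among the gene peaks most open in TxR was CTNNA3, which encodes alpha-T-catenin of cell junctions (chr10:67695476-67696476). It had 27.8 and 26.5 CPM in TxR libraries, against 0.225 and 0.234 CPM in CpR libraries (log2 difference 5.24, SE 0.30, adjusted p = 9.78e-30). NTS, the gene of the neuropeptide neurotensin (chr12:85873784-85874784), had 34.1 and 29.7 CPM in TxR libraries, against 1.13 and 0.234 CPM in CpR libraries (log2 difference 4.89, SE 0.25, adjusted p = 3.5e-33). Both genes were also open in TxCpR libraries, at 22.9 and 23.3 CPM and 41.8 and 41.8 CPM, and near the CpR level in Control libraries. TLX1, a homeobox transcription factor gene, had 29.7 and 25.2 CPM in TxR libraries, against 0.900 and 0.468 CPM in CpR libraries (4.58), and HAPLN1, which encodes a link protein of hyaluronan matrix, had 47.96 and 50.3 CPM in TxR libraries, against 2.25 and 1.52 CPM in CpR libraries (4.40). HAPLN1 was also surrounded by open distal peaks, with 58 of 59 within 100 kb higher and none lower. Distal peaks here and below lie outside promoter windows and within 100 kb of the gene nearest to them. A gene peak placed by gene end can be among them. Over all peaks inside genes 12.4% were higher and 23.8% lower, and outside genes 15.1% and 25%. SULT2A1, a sulfotransferase gene, was high in TxR only, with 38.97 and 37.5 CPM in TxR libraries, against 2.14 and 2.10 CPM in CpR libraries, 5.44 and 2.90 CPM in TxCpR and 2.34 and 2.45 CPM in Control libraries. Others of the 10 were MGAT4C (4.47; 2.90 with the median of its 5 Mb region subtracted), MEI4 (4.23), RIN2 (4.11) and DNAJC15 (4.08). The TxR and CpR libraries of these genes did not overlap, which was part of the rule that chose them; over all gene peaks 74.2% did not overlap.

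The promoter window of NTS is shown because it was open in TxR and near closed in CpR with only 2 CpG in 300 bases, and that of F2RL2 because it was near closed in TxR and open in CpR, with 5 CpG and an AP-1 match close to the start. Matches of the searched motifs are in capitals (chr12:85874045-85874344, plus strand; chr5:76623354-76623653, minus strand). NTS holds a GGAATG match, the core bound by TEAD factors, 21 bases before its start.
NTS: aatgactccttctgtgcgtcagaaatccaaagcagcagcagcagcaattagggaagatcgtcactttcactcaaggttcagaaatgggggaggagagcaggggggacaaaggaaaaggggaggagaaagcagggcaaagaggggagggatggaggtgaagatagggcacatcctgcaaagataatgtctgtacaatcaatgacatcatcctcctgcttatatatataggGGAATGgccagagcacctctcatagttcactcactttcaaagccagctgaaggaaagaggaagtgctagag
F2RL2: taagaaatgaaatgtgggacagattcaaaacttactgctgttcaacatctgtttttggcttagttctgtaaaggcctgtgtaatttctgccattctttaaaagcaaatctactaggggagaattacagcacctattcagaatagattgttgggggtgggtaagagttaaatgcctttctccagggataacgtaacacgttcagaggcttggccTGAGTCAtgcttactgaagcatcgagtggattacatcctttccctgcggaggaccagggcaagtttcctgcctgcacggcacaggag

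The gene peak with the largest loss was PI15, which encodes a secreted peptidase inhibitor (chr8:74823518-74824518). It had 0.364 and 0.674 CPM in TxR libraries, against 55.3 and 57.6 CPM in CpR libraries (log2 difference -5.82, SE 0.27, adjusted p = 4.14e-37). All 60 distal peaks within 100 kb, which include the gene peak, were lower. Control libraries stood at 32.4 and 26.6 CPM, on the CpR side, and TxCpR libraries at 0.247 and 0.967 CPM, on the TxR side. F2RL2 had 0.121 and 0.450 CPM in TxR libraries, against 16.8 and 18.6 CPM in CpR libraries (log2 difference -4.56, SE 0.41, adjusted p = 1.57e-17). GNGT2, a G protein gamma subunit gene, had 0.607 and 0.450 CPM in TxR libraries, against 21.9 and 23.5 CPM in CpR libraries (-4.50), and LY6K, a cancer-testis antigen gene, had 0.850 and 1.12 CPM in TxR libraries, against 29.1 and 28.9 CPM in CpR libraries (-4.32). These 3 were open in CpR and at 2.04 CPM or less in TxCpR and Control libraries. The KRAB zinc finger genes ZNF354C (-4.79), ZNF470 (-4.60, its peak shared with ZNF470-DT) and ZNF613 (-4.31) were also among the 10. ZNF470 and ZNF613 were open in Control (15.3 and 13.1 CPM and 17.4 and 18.4 CPM), while ZNF613 was closed in TxCpR (0.247 and 0.430 CPM). Further members were SLA (-4.24), an adaptor gene of antigen receptor signalling, and the histone gene H2BC3 (-4.16), whose copies are near-identical so that reads could be split between them.

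ABCB1 was open in TxR, with 71.1 and 72.1 CPM in TxR libraries, against 7.77 and 7.48 CPM in CpR libraries at its gene peak (chr7:87600242-87601242; log2 difference 3.15, SE 0.18, adjusted p = 2.18e-30). TxCpR libraries stood at 9.03 and 12.6 CPM and Control libraries at 9.10 and 6.82 CPM, so among the 4 groups only TxR was high. The peak over the start of RUNDC3B, which lies inside the span of ABCB1 and so is the strongest over that gene, had 106 and 116 CPM in TxR libraries, against 15.4 and 25.1 CPM in CpR libraries (2.46). In the neighbouring gene ABCB4, which encodes a phospholipid pump of bile, the strongest peak had 118 and 111 CPM in TxR libraries, against 1.24 and 1.40 CPM in CpR libraries (log2 difference 5.99, SE 0.23, adjusted p = 1.57e-42). CROT, a peroxisomal carnitine transferase gene, had 151 and 150.5 CPM in TxR libraries, against 50.8 and 51.2 CPM in CpR libraries (1.55). Of 19 measured genes of 7q21, ABCB1 included, 16 were higher and 1 lower (STEAP4, -1.25). The opening was dense on the downstream side of the ABCB1 start, where 81 of 96 peaks within 0.5 Mb were higher and none lower (median 1.98). In the next 0.5 Mb 1 of 6 was higher and 1 lower, and between 3 and 3.5 Mb downstream 6 of 9 were lower and none higher. With the medians of 5 Mb regions taken off, which moved the median of all peaks from -0.06 to 0.22, these genes gave 9 higher and 6 lower. The difference was then 1.90 at ABCB1, 1.21 at RUNDC3B, 0.31 at CROT and 4.74 at the ABCB4 peak, while the weaker gene peak of ABCB4, 0.98 before, was no longer called (-0.27, adjusted p = 0.495; also not called without TxR library 2, adjusted p = 0.0531). Of 26 other ABC transporter genes 12 were higher and 2 lower (46.2% and 7.69%, against 35.4% and 12.6% over all gene peaks). After loess scaling 6 were higher and 3 lower. Under CPM 1 differed by at least 1 (ABCG1, -1.83). ABCG2, another multidrug pump gene, had 11.3 and 10.9 CPM in TxR and 8.55 and 8.30 CPM in CpR libraries and was not called (0.38, adjusted p = 0.124; -0.30 with the regional median subtracted).

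**Figure D2:**
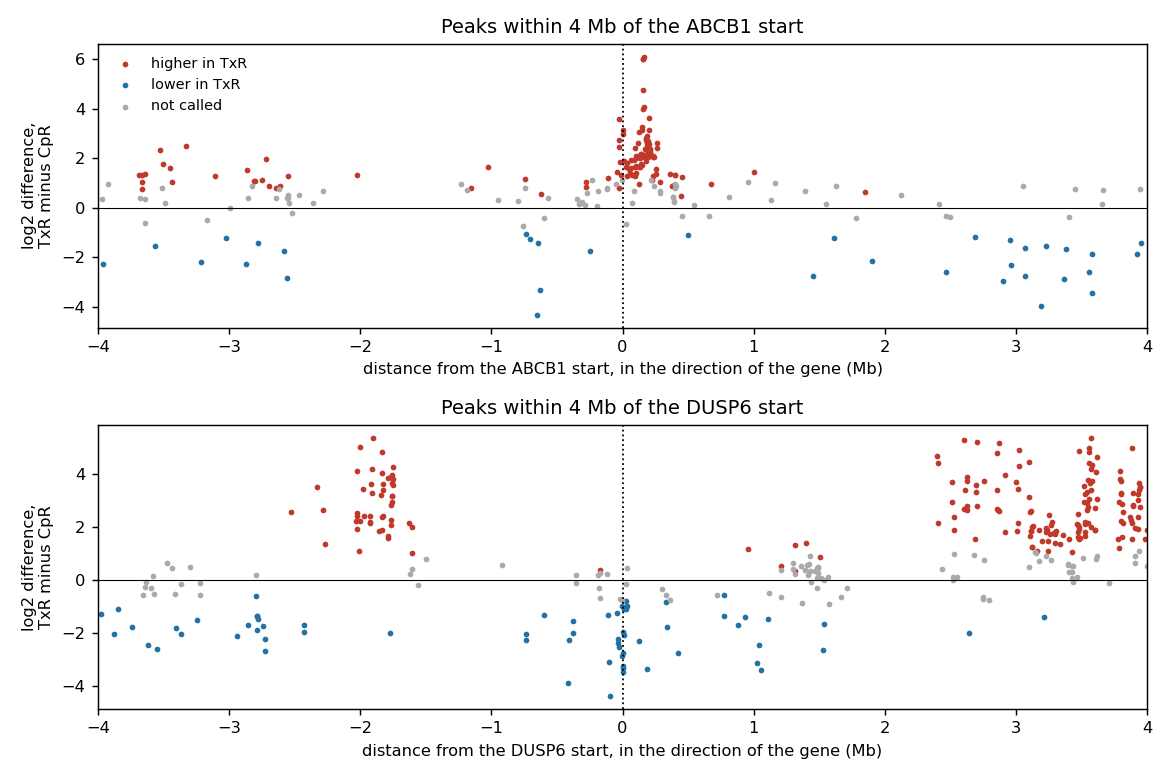
Log2 difference (TxR minus CpR) of each tested peak against its distance in Mb from the start of ABCB1 (upper panel) and DUSP6 (lower panel), red where higher in TxR, blue where lower and grey where not called. A dense run of higher peaks sits just downstream of the ABCB1 start, and lower peaks at DUSP6 are flanked on both sides by runs of higher peaks.

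The ABCB1 and DUSP6 promoter windows are shown because they changed in opposite directions (chr7:87600835-87601134, minus strand; chr12:89352452-89352751, minus strand). They hold 16 and 19 CpG, and motif matches are in capitals; ABCB1 has CCAAT matches 238 and 79 bases before its start, the first sharing a base with its TGATTCA match, and DUSP6 has a CCAAT match 46 bases before its start.
ABCB1: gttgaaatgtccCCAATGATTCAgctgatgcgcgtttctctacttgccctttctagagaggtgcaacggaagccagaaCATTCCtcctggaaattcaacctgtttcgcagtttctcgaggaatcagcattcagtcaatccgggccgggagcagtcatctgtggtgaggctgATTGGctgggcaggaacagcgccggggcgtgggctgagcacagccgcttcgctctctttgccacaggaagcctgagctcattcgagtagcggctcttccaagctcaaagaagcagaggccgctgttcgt
DUSP6: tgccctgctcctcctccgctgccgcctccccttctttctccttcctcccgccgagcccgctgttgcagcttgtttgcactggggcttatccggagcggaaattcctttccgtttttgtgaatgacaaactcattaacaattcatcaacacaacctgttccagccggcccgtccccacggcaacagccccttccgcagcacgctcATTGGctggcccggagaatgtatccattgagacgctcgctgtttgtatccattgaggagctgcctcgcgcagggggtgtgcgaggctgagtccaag

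DUSP6, which encodes the phosphatase that switches off ERK, was lower in TxR, with 6.43 and 3.82 CPM in TxR libraries, against 49.1 and 52.7 CPM in CpR libraries (chr12:89351875-89352875; log2 difference -3.23, SE 0.15, adjusted p = 8.22e-37). Of its 19 distal peaks 15 were lower and none higher. TxCpR and Control libraries had 26.1 and 25.6 CPM and 44.2 and 41.7 CPM, so TxR was the lowest group. Of 15 measured ERK feedback genes 7 were lower and 2 higher (median -0.31), against a median of 0.21 over all gene peaks; with regional medians subtracted 2 were lower and 6 higher. The region around DUSP6 on 12q21 was opposed on both sides. Between 3 and 3.5 Mb downstream, where NTS and MGAT4C lie, 48 of 64 peaks were higher and 1 lower, and in the next 0.5 Mb 63 of 71 were higher and none lower. Between 1.5 and 2 Mb upstream, where the matrix proteoglycan genes LUM and DCN lie, 36 of 41 were higher and 1 lower. LUM had 26.2 and 25.4 CPM in TxR libraries, against 1.69 and 1.40 CPM in CpR libraries (3.69), and DCN had 14.6 and 15.1 CPM in TxR libraries, against 0.788 and 0.351 CPM in CpR libraries (3.87). LUM and DCN were at 1.98 CPM or less in TxCpR and Control libraries, unlike NTS and MGAT4C, which were open in TxCpR.

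Genes of paclitaxel's own target gave small differences. At every gene given with its levels here and below, except SPTBN1, the TxR and CpR libraries did not overlap, as at 74.2% of all gene peaks, and most of these genes were chosen for large called differences. None of 16 measured tubulin gene peaks differed by at least 1, with 3 higher and 3 lower (18.75% each, against 35.4% and 12.6% over all gene peaks). They gave 3 higher and 5 lower after loess scaling, 3 and none after TMM scaling and 9 and none after regional medians were subtracted. TUBB3, the beta-tubulin isotype linked to taxane resistance, had 19.7 and 18.2 CPM in TxR and 23.3 and 26.8 CPM in CpR libraries (log2 difference -0.39, SE 0.16, adjusted p = 0.0368), a call that was lost without CpR library 2 (-0.29, adjusted p = 0.252), without TxR library 1 (-0.45, adjusted p = 0.0685) or without TxR library 2 (-0.34, adjusted p = 0.183). It was also lost after TMM scaling (adjusted p = 0.107), in edgeR (adjusted p = 0.0904) and in DESeq2 (adjusted p = 0.138). The strongest peak over TUBB3 had the other sign and was not called, with 23.9 and 26.6 CPM in TxR and 21.7 and 18.5 CPM in CpR libraries (0.33, adjusted p = 0.0649; 0.54 and called with the regional median subtracted, adjusted p = 0.0027, and called in edgeR, adjusted p = 0.0154). The strongest peak over TUBB1, a platelet beta-tubulin gene, was higher (1.11, adjusted p = 0.0235), a call lost without TxR library 1 (1.27, adjusted p = 0.0546), TxR library 2 (0.95, adjusted p = 0.171) or CpR library 1 (0.91, adjusted p = 0.175). Tubulin genes have near-identical copies, and reads shared between copies could be split. Among 27 microtubule-associated genes 7 were higher and 6 lower (25.9% and 22.2%, against 35.4% and 12.6% over all gene peaks). After loess scaling 1 was higher and 8 lower. Past 1 under CPM were 1 higher and 2 lower members. KATNA1, the catalytic subunit of the microtubule-severing enzyme katanin, had 31.8 and 35.2 CPM in TxR libraries, against 16.1 and 13.8 CPM in CpR libraries (log2 difference 1.14, SE 0.16, adjusted p = 2.96e-09). The 2 lower ones were STMN2, a neuronal stathmin gene (0.607 and 1.24 CPM in TxR and 2.70 and 3.27 CPM in CpR libraries; -1.33), and EML1, a microtubule-binding protein gene (2.43 and 3.03 CPM in TxR and 6.98 and 5.73 CPM in CpR libraries; -1.09). Neither was called with the regional median subtracted (0.13 at STMN2, -0.76 at EML1). The STMN2 call was also lost without TxR library 1 (adjusted p = 0.111) or CpR library 2 (-1.21, adjusted p = 0.0742), and the EML1 call without TxR library 1 (-0.95, adjusted p = 0.0537) or CpR library 1 (-0.95, adjusted p = 0.0713). Of 22 spindle checkpoint and mitotic kinase genes 12 were higher and 1 lower under CPM, against 35.4% and 12.6% over all gene peaks. They gave 7 and 3 after loess or quantile scaling and 20 and none after regional medians were subtracted. NEK2, a centrosome kinase gene and the only member past 1, had 67.3 and 75.3 CPM in TxR libraries, against 32.98 and 34.7 CPM in CpR libraries (1.06).

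Among genes tied to cisplatin, the largest loss was at SLC7A11, the cystine importer that feeds glutathione synthesis (chr4:138241807-138242807). It had 2.91 and 2.47 CPM in TxR libraries, against 39.4 and 45.5 CPM in CpR libraries (log2 difference -3.75, SE 0.18, adjusted p = 4.35e-35). Of 12 distal peaks within 100 kb, which include the gene peak, 10 were lower. Control libraries were on the CpR side (31.7 and 37.1 CPM) and TxCpR libraries closer to TxR (7.91 and 6.66 CPM). The 33 measured glutathione and NRF2 target genes gave 13 higher and 3 lower (39.4% and 9.09%, against 35.4% and 12.6% over all gene peaks). After loess scaling 8 were higher and 5 lower. Under CPM 3 were higher and 2 lower by at least 1. ME1, malic enzyme, which makes NADPH, had 33.4 and 29.7 CPM in TxR libraries, against 9.79 and 7.60 CPM in CpR libraries (1.81), and GSTM3, a glutathione transferase gene, had 0 and 1.01 CPM in TxR libraries, against 8.33 and 6.55 CPM in CpR libraries (-3.18; -2.10 with the regional median subtracted). MGST1, a microsomal glutathione transferase gene, was higher (1.34) but not after regional medians were subtracted (0.03, adjusted p = 0.934). Of 15 platinum uptake and export genes none was higher and 4 lower after loess scaling. Under CPM 3 were higher and 2 lower (20% and 13.3%, against 35.4% and 12.6% over all gene peaks). The 2 lower ones were channel subunit genes, LRRC8E (1.46 and 0.450 CPM in TxR and 8.78 and 6.20 CPM in CpR libraries; -2.53) and LRRC8C (6.56 and 6.63 CPM in TxR and 17.9 and 15.1 CPM in CpR libraries; -1.26). The copper exporter gene ATP7B had 62.9 and 54.6 CPM in TxR and 44.01 and 39.3 CPM in CpR libraries (0.49; 0.22 after loess scaling, adjusted p = 0.0917; 0.83 with the regional median subtracted). The copper importer gene SLC31A1 had 59.01 and 57.4 CPM in TxR and 51.7 and 50.6 CPM in CpR libraries and was not called (0.19, adjusted p = 0.136; -0.09 after loess scaling; 0.93 and called with the regional median subtracted). In the metallothionein list of 8 genes, whose members have near-identical copies, MT1F (1.09) was higher and MT1E (-2.03) lower by at least 1.

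DNA repair genes leaned higher under CPM but not under every scaling. Of 10 mismatch repair genes 7 were higher and none lower (median 0.48), and after loess scaling 3 were higher and 1 lower. Of 31 crosslink and homologous repair genes 16 were higher and 3 lower, and after loess scaling 7 were higher and 8 lower. Of 21 nucleotide excision repair genes 10 were higher and 2 lower, and after loess scaling 3 and 3. Of 17 housekeeping genes 10 were higher and none lower (median 0.37) under CPM and 7 and 2 after loess scaling. Over all gene peaks 35.4% were higher and 12.6% lower under CPM. The only member of these repair lists past 1 was SLFN11, which encodes a factor that blocks stressed replication forks, with 2.06 and 2.25 CPM in TxR libraries, against 6.08 and 5.73 CPM in CpR libraries (log2 difference -1.27, SE 0.37, adjusted p = 0.00299). Among 24 p53 target genes 6 were higher and 8 lower, with 4 and 11 after loess or quantile scaling and 16 and 2 after regional medians were subtracted. CDKN1A, the p21 cell cycle inhibitor gene, had 38.9 and 39.3 CPM in TxR libraries, against 20.7 and 22.8 CPM in CpR libraries (0.83), while BBC3, the PUMA cell death gene, had 1.46 and 1.35 CPM in TxR libraries, against 5.06 and 6.20 CPM in CpR libraries (-1.68). Of 20 measured BCL2 family genes 4 were lower by at least 1 and none higher, against 6.51% and 5.12% over all gene peaks. Besides BBC3 they were BCL2L15 (-2.91), BCL2A1 (-1.84) and HRK (-1.63; -0.89 without TxR library 2 and -0.95 with the regional median subtracted).

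**Figure D3:**
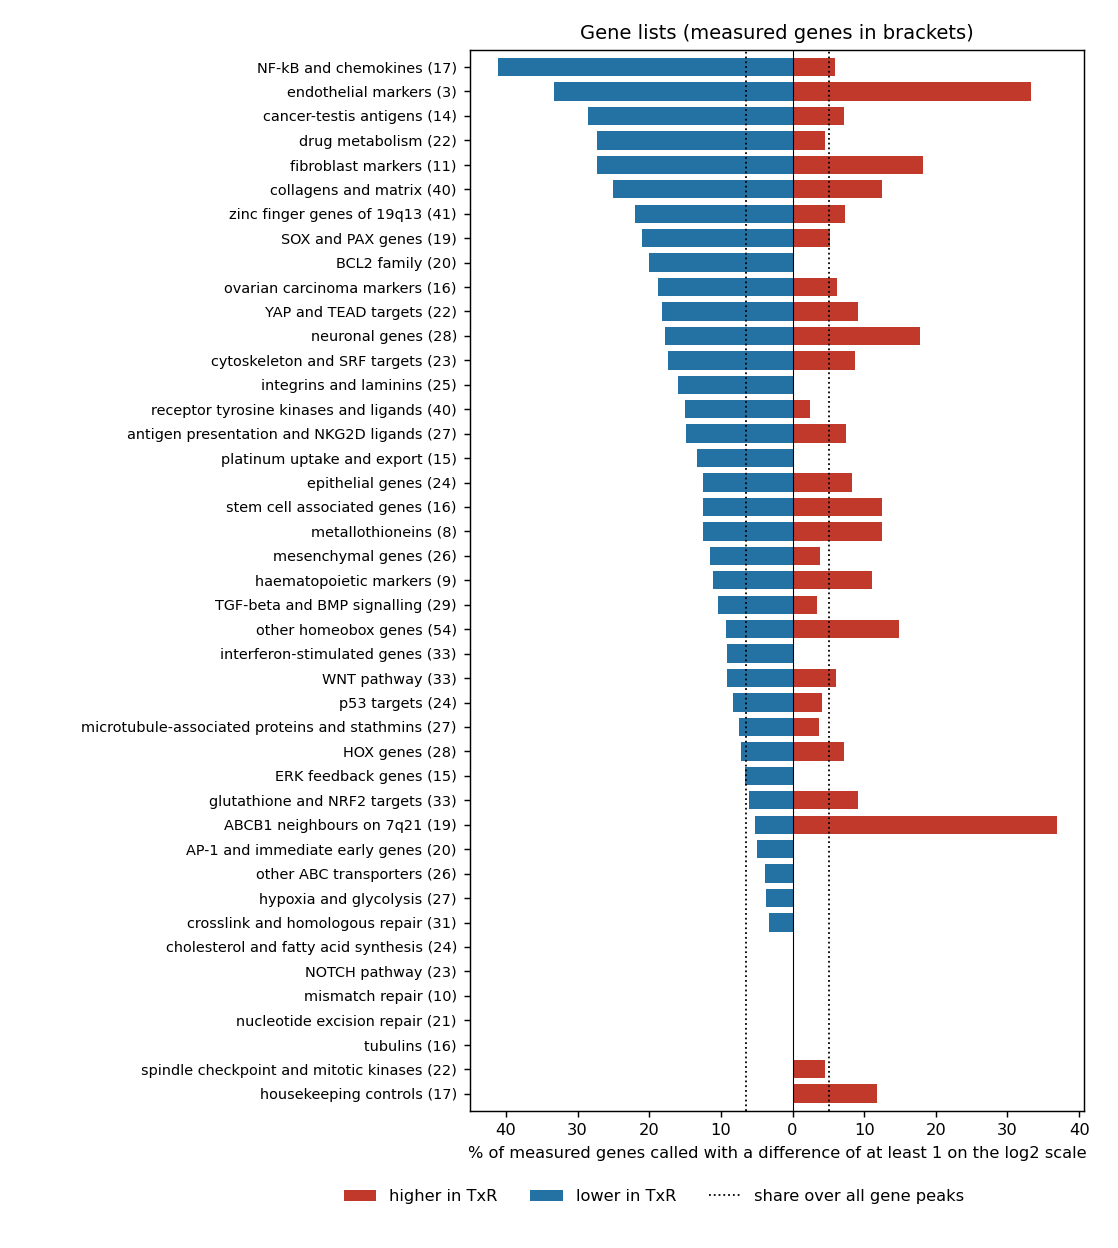
Share of the measured genes of each list (number in brackets) that were called with a difference of at least 1 on the log2 scale, to the right in red where higher in TxR and to the left in blue where lower, with dotted lines at the shares over all gene peaks (5.12% higher, 6.51% lower). The ABCB1 neighbours reach furthest to the right and the NF-kB and chemokine genes furthest to the left.

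Inflammatory genes changed in both directions, the larger differences being mostly lower in TxR. Of 17 measured NF-kB and chemokine genes 7 were lower, all by at least 1, and 5 higher, 1 of them (TRAF1) by at least 1, against 6.51% and 5.12% over all gene peaks. ICAM1, an adhesion receptor gene, had 1.70 and 1.24 CPM in TxR libraries, against 7.09 and 6.90 CPM in CpR libraries (-1.94), IL6, a cytokine gene, had 4.01 and 4.38 CPM in TxR libraries, against 16.4 and 13.9 CPM in CpR libraries (-1.74) and CXCL2, a neutrophil chemokine gene, had 4.37 and 2.58 CPM in TxR libraries, against 12.9 and 13.3 CPM in CpR libraries (-1.81; -0.83 with the regional median subtracted). BIRC3, an apoptosis inhibitor gene, had 5.34 and 4.05 CPM in TxR and 13.96 and 15.7 CPM in CpR libraries (-1.57), which shrank to -0.10 (adjusted p = 0.766) after regional medians were subtracted. For IL6 the TxCpR and Control libraries were on the TxR side (3.34 and 3.01 CPM and 1.82 and 2.70 CPM), whereas for CXCL2 the Control libraries were on the CpR side (10.7 and 14.03 CPM). Among interferon-stimulated genes 6 of 33 were higher and 9 lower (18.2% and 27.3%, against 35.4% and 12.6% over all gene peaks). After loess scaling 1 was higher and 10 lower. Past 1 under CPM were RSAD2 (-2.26, -1.43 with the regional median subtracted, its peak shared with CMPK2), IFI16 (-2.23) and IFI44L (-1.97, or -0.78 and not called after regional subtraction, adjusted p = 0.0693). AP-1 genes themselves gave 5 higher and 4 lower of 20 (25% and 20%, against 35.4% and 12.6% over all gene peaks). After regional medians were subtracted 10 were higher and 1 lower. FOSL1, a FOS family gene, had 7.53 and 9.89 CPM in TxR libraries, against 22.1 and 23.4 CPM in CpR libraries (log2 difference -1.35, SE 0.19, adjusted p = 1.88e-09). Of its 10 distal peaks, which include the gene peak, 8 were lower.

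Genes of immune recognition were divided. ULBP1, which encodes a stress ligand for natural killer cells, had 35.6 and 43.2 CPM in TxR libraries, against 9.57 and 8.30 CPM in CpR libraries (log2 difference 2.08, SE 0.23, adjusted p = 2.76e-13), and RAET1G, another such ligand gene, had 20.2 and 20.004 CPM in TxR libraries, against 8.89 and 9.59 CPM in CpR libraries (1.08). RAET1E of the same family went the other way, with 0.607 and 0.450 CPM in TxR libraries, against 5.74 and 7.02 CPM in CpR libraries (-2.74). Over the list of 27 genes 12 were higher and 5 lower (44.4% and 18.5%, against 35.4% and 12.6% over all gene peaks).

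Genes of matrix, adhesion and contractility changed in both directions. Of 40 collagen and matrix genes 10 were lower and 5 higher by at least 1, against 6.51% lower and 5.12% higher over all gene peaks, the gains including HAPLN1, LUM and DCN and the losses THBS1, a thrombospondin gene (2.31 and 2.25 CPM in TxR and 11.1 and 12.4 CPM in CpR libraries; -2.14), and the shared start of COL4A1 and COL4A2. TNC, the tenascin gene, had 1.94 and 1.46 CPM in TxR libraries, against 15.4 and 18.5 CPM in CpR libraries (-2.99; -1.32 with the regional median subtracted), and POSTN, the periostin gene, had 1.09 and 0.112 CPM in TxR libraries, against 6.64 and 5.14 CPM in CpR libraries (-2.68) with all 16 distal peaks lower. CAVIN3, a coat protein gene of caveolae, had 1.09 and 1.12 CPM in TxR libraries, against 17.7 and 16.7 CPM in CpR libraries (-3.46). MRTFB, a coactivator of serum response factor, was higher, with 20.5 and 21.8 CPM in TxR libraries, against 2.48 and 2.69 CPM in CpR libraries (2.81). Of 25 integrin and laminin genes 4 were lower by at least 1 and none higher. ITGAV, the alpha-V integrin gene, had 13.96 and 16.7 CPM in TxR libraries, against 27.8 and 36.5 CPM in CpR libraries (-1.03), and 22 of its 24 distal peaks were lower. Of 22 YAP and TEAD target genes 2 were higher and 4 lower by at least 1. VGLL3, a TEAD cofactor gene, was higher, with 38.2 and 39.6 CPM in TxR libraries, against 10.4 and 10.4 CPM in CpR libraries (1.86; 0.39 and not called with the regional median subtracted, adjusted p = 0.103). CCN1, a matrix protein gene activated by YAP and TEAD, had 12.1 and 16.1 CPM in TxR libraries, against 39.1 and 39.3 CPM in CpR libraries (-1.45). All its 13 distal peaks, which include the gene peak, were lower. RBMS3, an RNA-binding protein gene of the same list, had 3.16 and 1.80 CPM in TxR libraries, against 33.1 and 33.7 CPM in CpR libraries (-3.55) with 38 of 39 distal peaks lower.

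Large losses were also found at genes of signalling. TGFBR2, the type II TGF-beta receptor gene, had 1.46 and 2.14 CPM in TxR libraries, against 21.8 and 24.2 CPM in CpR libraries (log2 difference -3.37, SE 0.28, adjusted p = 1.6e-19), PDGFRB, a platelet-derived growth factor receptor gene, had 4.61 and 4.16 CPM in TxR libraries, against 25.9 and 26.3 CPM in CpR libraries (log2 difference -2.45, SE 0.23, adjusted p = 2.91e-16), and WNT5A, a WNT ligand gene, had 0.971 and 1.80 CPM in TxR libraries, against 10.6 and 7.48 CPM in CpR libraries (log2 difference -2.35, SE 0.36, adjusted p = 2.64e-08; -1.23 with the regional median subtracted). Of 40 receptor tyrosine kinase and ligand genes 6 were lower and 1 higher by at least 1, against 6.51% and 5.12% over all gene peaks. AHR, the aryl hydrocarbon receptor gene, had 1.70 and 0.674 CPM in TxR libraries, against 7.77 and 9.94 CPM in CpR libraries (-2.53), and its target CYP1B1, a P450 that can oxidise drugs, had 15.2 and 13.04 CPM in TxR libraries, against 42.4 and 47.4 CPM in CpR libraries (log2 difference -1.64, SE 0.13, adjusted p = 5.15e-21). Of 37 distal peaks within 100 kb of CYP1B1, 17 were higher and 6 lower. Of 22 drug metabolism genes 6 were lower and 1 higher by at least 1, against the same 6.51% and 5.12%.

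Developmental regulators changed in both directions. Of 54 homeobox genes outside the HOX clusters 8 were higher and 5 lower by at least 1, against 5.12% and 6.51% over all gene peaks. Besides TLX1, TLX3 had 21.9 and 19.3 CPM in TxR libraries, against 2.48 and 2.57 CPM in CpR libraries (2.80) and DLX5, a bone and limb factor gene, had 81.2 and 72.8 CPM in TxR libraries, against 29.6 and 33.1 CPM in CpR libraries (1.28). TLX3 was also open in Control (26.6 and 29.99 CPM) and low in TxCpR libraries (4.70 and 4.08 CPM), whereas TLX1 was near closed in Control (1.43 and 1.03 CPM). SOX9, a progenitor factor gene, had 0.486 and 0.899 CPM in TxR libraries, against 14.6 and 13.7 CPM in CpR libraries (-3.64), and SOX30, a germ cell factor gene, had 6.92 and 5.62 CPM in TxR libraries, against 0.338 and 0 CPM in CpR libraries (3.38). IGF2BP3, an oncofetal RNA-binding protein gene, had 75.3 and 72.7 CPM in TxR libraries, against 34.7 and 29.1 CPM in CpR libraries (1.21). LIN28B, a regulator of let-7 maturation, had 35.7 and 36.97 CPM in TxR libraries, against 15.6 and 12.9 CPM in CpR libraries (1.33) but reversed to -0.68 (adjusted p = 0.000185) once the strong median of its region was subtracted. Of 41 zinc finger genes on 19q13, which have close paralogs, 9 were lower and 3 higher by at least 1, against the same 6.51% and 5.12%.

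Genes were also ranked by their number of called distal peaks, which favours genes with many tested peaks near them and does not measure the share that changed. Higher distal peaks were most numerous at ABCB4 (60 of 64), HAPLN1 (58 of 59), MEST, an imprinted gene of 7q32 (49 of 51), and SPTBN1, a spectrin gene (49 of 97, with 5 lower). Lower distal peaks were most numerous at JMJD1C, a Jumonji domain gene (111 of 142), PI15 (60 of 60), SPRED1, an inhibitor of RAS signalling (48 of 52), and PTK2, the focal adhesion kinase gene (48 of 70). The start of MEST was open with its surroundings (48.8 and 50.6 CPM in TxR libraries, against 10.7 and 10.2 CPM in CpR libraries; 2.20), while that of SPTBN1 was not called (32.5 and 33.9 CPM in TxR and 32.8 and 39.5 CPM in CpR libraries; -0.11, adjusted p = 0.52; -0.74 and called with the regional median subtracted). After regional medians were subtracted, 41 distal peaks were higher at HAPLN1, 47 at MEST and 26 at ABCB4, and 48 were lower at PI15 and 41 at SPRED1, against 23 at JMJD1C and 17 at PTK2.

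The largest differences of all were at single peaks away from promoters. The peak at chr6:104686492-104687492 had 122 and 132 CPM in TxR libraries, against 0.900 and 1.05 CPM in CpR libraries (log2 difference 6.43, SE 0.13, adjusted p = 5.81e-69), and that at chr6:139925974-139926974 had 68.7 and 62.5 CPM in TxR libraries, against 0.113 and 0.351 CPM in CpR libraries (6.52). A peak at chr7:87440446-87441446, inside ABCB4, had 34.8 and 32.4 CPM in TxR libraries and no reads in CpR libraries, which puts it at least 95.8-fold higher (3 reads in each CpR library taken as the limit). In the other direction, the peak at chr3:46112106-46113106 had 0.486 and 0.112 CPM in TxR libraries, against 65.7 and 66.1 CPM in CpR libraries (log2 difference -6.42, SE 0.21, adjusted p = 1.26e-49), and a peak at chr10:6778888-6779888 had no reads in TxR and 29.3 and 34.1 CPM in CpR libraries, at least 87.0-fold lower. The chromosome 3 peak was partly open in TxCpR (7.54 and 8.38 CPM) and more so in Control (27.7 and 31.9 CPM), whereas the chromosome 10 peak was near closed in both (0.371 and 0 CPM in TxCpR, 0.780 and 0.515 CPM in Control).

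**Figure D4:**
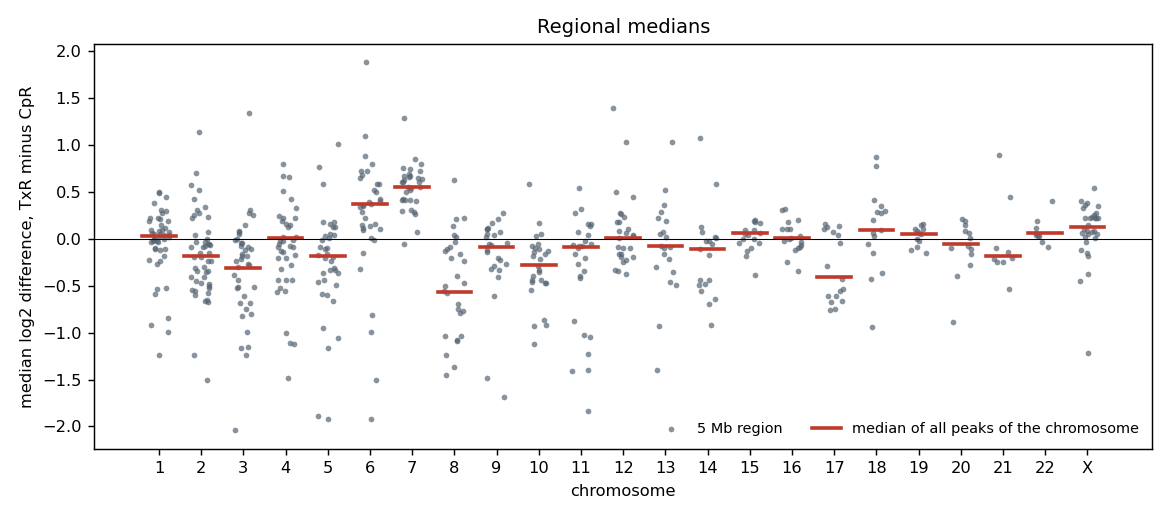
Median log2 difference (TxR minus CpR) of the tested peaks in each 5 Mb region with at least 20 of them (dots), by chromosome, with the median over all peaks of a chromosome as a red line. Chromosomes 6 and 7 stand above 0 and chromosomes 8, 17 and 3 below it.

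Differences were also shared along chromosomes. The median over all peaks was 0.55 on chromosome 7, where 3274 of 9610 peaks were higher and 1184 lower, and 0.38 on chromosome 6. It was -0.56 on chromosome 8, where 2827 of 7125 peaks were lower and 631 higher, -0.41 on chromosome 17 and -0.31 on chromosome 3. Of 595 regions of 5 Mb, 439 had a median within 0.5 of 0, 10 a median of at least 1 and 35 a median of -1 or less. The highest was chromosome 6 from 100 to 105 Mb, with LIN28B and the glutamate receptor gene GRIK2 (median 1.88, 182 of 239 peaks higher), followed by chromosome 12 from 85 to 90 Mb (1.39), chromosome 3 from 85 to 90 Mb (1.34) and chromosome 7 from 85 to 90 Mb (1.29). The lowest was the neighbouring stretch of chromosome 3 from 80 to 85 Mb (-2.04, 63 of 92 peaks lower), so the sign turned between adjacent regions. MYC on chromosome 8 had 67.3 and 69.9 CPM in TxR and 89.4 and 81.6 CPM in CpR libraries (-0.31), and with the regional median subtracted it was 1.14, where the median of all peaks stood at 0.22. Its call under CPM was lost without CpR library 1 (-0.25, adjusted p = 0.117), without TxR library 1 (-0.29, adjusted p = 0.0768), after TMM scaling (adjusted p = 0.055) and in DESeq2 (adjusted p = 0.0605). The part of copy number in these regional medians was not tested.

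**Figure D5:**
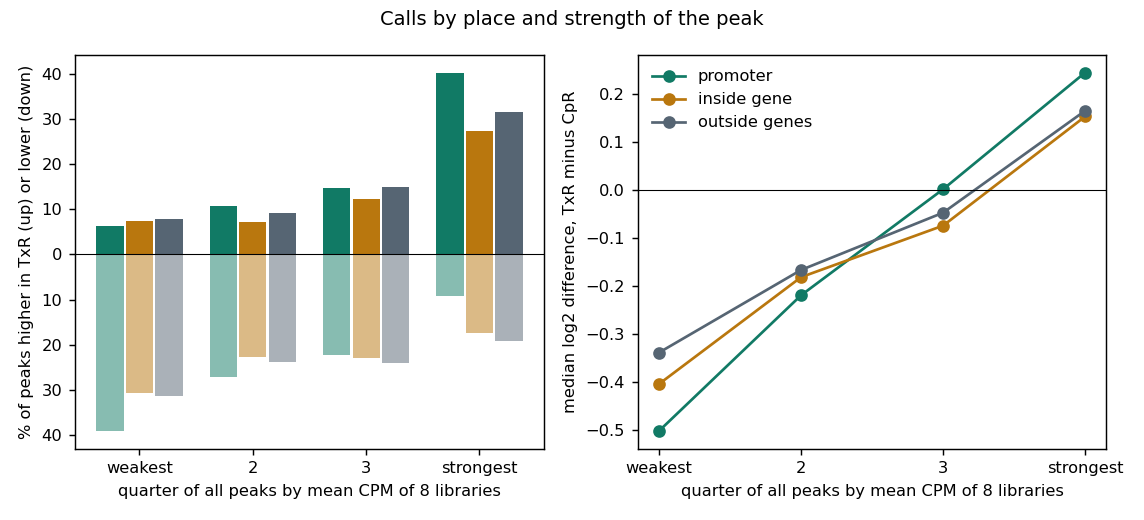
Left, percent of peaks called higher (up, dark) or lower (down, pale) in TxR; right, median log2 difference, for 4 equal classes of mean CPM over the 8 libraries and for peaks at promoters, inside genes and outside genes. In all 3 places the weakest class lies below 0 and the strongest above it.

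By place, 4197 of 12048 promoter peaks were higher and 1515 lower (34.8% and 12.6%), 9812 of 78856 peaks inside genes were higher and 18751 lower (12.4% and 23.8%), and 10263 of 67794 peaks outside genes were higher and 16945 lower (15.1% and 25%). The strength of a peak moved with this split. When all peaks were ranked by mean CPM into 4 classes of equal size, promoters of the weakest class had a median of -0.50 (22 of 353 higher, 138 lower) and those of the strongest class 0.24 (3908 of 9699 higher, 900 lower). Peaks inside genes gave -0.40 and 0.15, and peaks outside genes -0.34 and 0.16, for the same 2 classes. Promoter peaks held 34.0% and 33.8% of reads in TxR, 28.6% and 28.9% in CpR, 28.2% and 29.0% in TxCpR and 31.8% and 31.4% in Control libraries. The 1% of peaks with the most reads held 16.4% and 16.3% of reads in TxR and 13.7% and 13.9% in CpR libraries. The part of this share in the balance of calls was not tested.

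The other lines showed on which side a difference lay. At the 32503 peaks lower in TxR by at least 1, both TxCpR libraries were on the TxR side of the midpoint at 72.8% and both Control libraries at 68.5%. At 58.6% of them both groups were on the TxR side, so that CpR alone was above the midpoint. A group on the TxR side could still stand between TxR and CpR. At the 13683 peaks higher in TxR by at least 1 the picture was mixed, with TxCpR on the TxR side at 52.3% and on the CpR side at 32.4%, and Control on the TxR side at 35.9% and on the CpR side at 45.6%. At 26.3% of them both TxCpR and Control were on the TxR side, so that CpR alone was below the midpoint. At 23.5% both TxCpR and Control were on the CpR side, as at ABCB1, LUM and SULT2A1. At 16.05% TxCpR was on the TxR side and Control on the CpR side, as at NTS, CTNNA3 and MEI4. Because the midpoint is set by the TxR and CpR libraries, these shares are a description with no test.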

How the data were processed

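ATAC-seq libraries were analysed from 8 samples in 4 groups of 2 (TxR, CpR, TxCpR and Control). The authors deposited a CPM matrix over 159451 consensus peaks, all 1001 bp wide, each read count scaled to a fixed total over the peaks of a library. Bowtie2, Picard and MACS2 and the build hg38 are named in the submitters' processing notes, without roles, versions or settings. Tn5 shifting and peak merging: not given in the sources used here. Because CPM sums to the same total in each library, a change shared by all peaks cannot be seen. Dividing by the step of each library gave whole reads within 0.01 for 100% of values, and the count test in edgeR (4.0.16) on these reads called 61108 peaks.

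The test was limma on log2(CPM + 0.5) for peaks reaching 1 CPM in 2 or more libraries (version 3.58.1, R 4.3.3), fitted to all 8 libraries with a variance trend and group as the only term. With 98.5 prior and 4 residual degrees of freedom, SEs come mostly from the trend over all peaks. No label states separate cultures within a group, so p-values measure only the spread between libraries, which may be technical. A call is a Benjamini-Hochberg adjusted p under 0.05 over 158698 peaks. Log2 values understate differences of weak peaks. Genes came from RefSeq tables of GRCh38.p14, the same build as hg38. The promoter table lacked a start for 3103 genes with a peak, which were placed by gene end; exons, introns and UTRs were not resolved.

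Members and the 43 gene lists were chosen with earlier results of these data known. Genes were named by rule: the 10 gene peaks per direction with the largest called differences, without overlap and with the higher group averaging at least 5 CPM; up to 4 called members of each list past 1 by smallest p; the 4 genes on each side with most called peaks within 100 kb; the 4 largest peaks and 4 regions per direction; and genes fixed by name. Promoters with AP-1 letters were ranked after their counts were seen, and some list members are named with the fitted value alone. Alternatives were other pseudocounts, filters, scalings, tools and thresholds, a replicate block and leaving out each library. The fit was tested on simulated data, with 100 of 158698 peaks changed 2-fold and 100 changed 4-fold. The changed peaks were drawn only from peaks above a minimum mean CPM, so recovery among weaker peaks was not tried. All peaks were simulated with the same spread beyond counting error. The fit recovered 25 of the 2-fold and 91 of the 4-fold changes, with 4 false calls. Far more peaks were called in the real data, so these rates need not hold there. A peak that was not called may still differ. Some genes that the rule names are not reported here.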

Additional observations from a re-analysis of the deposited data

How the results depend on the processing

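The counts of peaks and gene peaks called moved by less than 1.5 times except as follows. Peaks higher in TxR numbered 24272, 38301 after the medians of 5 Mb regions were subtracted and 13683 at a difference of at least 1. Gene peaks higher numbered 5191, 3140 after quantile scaling, 2447 after loess scaling, 8815 after regional subtraction and 752 at a difference of at least 1. Gene peaks lower numbered 1856, 2868 after loess scaling, 1075 after regional subtraction and 955 at a difference of at least 1. Regional subtraction and quantile scaling moved the median of all peaks to 0.22 and 0.14, against -0.06 under CPM, and the share of called peaks that were higher was 60.0%, 51.3% and 39.5%. Leaving out each library in turn gave 18390 to 24290 peaks higher, 30021 to 37354 lower, 3847 to 5220 gene peaks higher and 1472 to 1870 lower. Whole reads recovered from the CPM gave 27384 higher and 33724 lower peaks in edgeR, and 20444 and 29014 in DESeq2. Library numbers did not pair TxR with CpR (correlation of deviations 0.0024), and a replicate block gave 24349 and 37302 peaks and 5190 and 1855 gene peaks. With only genes that have a start in the promoter table, a choice made after seeing the data, 4364 gene peaks were higher and 1291 lower. Of 179 named results 124 kept direction and call under all 22 alternatives. Signs turned after regional subtraction at 9 named results. Among them were STMN2 (0.13), LIN28B (-0.68), ABCB4 (-0.27), PTK2 (0.40), ABCG2 (-0.30), MYC (1.14) and the strongest ABCC2 peak (0.47). They turned at 2 named results after quantile scaling, SLC31A1 (-0.067) being 1 of them. After loess scaling they turned at 4, among them SLC31A1 (-0.090) and GSTP1 (-0.005). At SPTBN1, -0.11 and not called, leaving out each library in turn gave -0.247 to 0.021, the sign turning without CpR replicate 2. The cause was not tested. At 3 reads or fewer per library, below 0.322 to 0.390 CPM, a level could not be told from 0.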

Other observations

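Lists not described above gave the following counts, at a difference of at least 1 unless stated. Of 23 NOTCH pathway genes 4 were higher and 1 lower in limma (3 and 5 after loess scaling), and of 24 cholesterol and fatty acid synthesis genes 8 were higher and 1 lower (3 and 9 after loess scaling), all by less than 1. Over all gene peaks 35.4% were higher and 12.6% lower in limma, and 5.12% and 6.51% by at least 1. The counts that follow are to be read against the latter shares. Of 33 WNT pathway genes 2 were higher and 3 lower, with SFRP1, a WNT antagonist gene, at 5.71 and 5.17 CPM in TxR libraries, against 1.35 and 0.702 CPM in CpR libraries (1.99). Of 29 TGF-beta and BMP genes 1 was higher (BMP7, 1.34) and 3 lower, and of 27 hypoxia and glycolysis genes 1 was lower (NDRG1, -1.66, and -0.35 with the regional median subtracted, adjusted p = 0.054). Of 28 HOX genes 2 were higher and 2 lower, with HOXC9 at 15.3 and 11.2 CPM in TxR libraries, against 5.74 and 4.44 CPM in CpR libraries (1.29). Of 28 neuronal genes 5 were higher and 5 lower, with CNTNAP2, a neurexin family gene (1.38; 0.77 with the regional median subtracted), and SYT1, a synaptic vesicle calcium sensor gene (-2.34; -1.43), on opposite sides. Of 24 epithelial genes 2 were higher and 3 lower, and of 26 mesenchymal genes 1 was higher and 3 lower. ESRP1, an epithelial splicing factor gene, had 9.59 and 8.88 CPM in TxR libraries, against 1.35 and 0.702 CPM in CpR libraries (2.71), while DSP, the desmoplakin gene, had 1.09 and 0.899 CPM in TxR libraries, against 7.09 and 8.30 CPM in CpR libraries (-2.45). Among 14 measured cancer-testis antigen genes TDRD1 (3.05) was higher and 4 were lower by at least 1, CTCFL, a paralog of the insulator factor CTCF, having 0.728 and 1.57 CPM in TxR libraries, against 13.5 and 10.1 CPM in CpR libraries (-2.93).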
